A study of Homo sapiens with 25 samples.

Results

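The sites described here are GFI1 peaks that lay in H3K4me1-marked chromatin but met no peak of either LSD1 list. They were chosen from the peak lists by position: a GFI1 peak entered when at least 1 of its bases overlapped an H3K4me1 peak of the DMSO list and none overlapped an LSD1 peak of the DMSO or the MC_2580 list. Of 29601 GFI1 peaks, 5968 (20.2%) met both conditions. They are called unpaired GFI1 peaks below, and they made up 34.4% of the 17327 GFI1 peaks on H3K4me1, which in turn were 58.5% of the list. The other GFI1 peaks on H3K4me1, 11359 in number, overlapped LSD1 and are called LSD1-paired. Of these, 2859 (25.2%) lay nearer to LSD1 of the MC_2580 list than of the DMSO list, so they met no DMSO LSD1 peak. Both groups were thus chosen in part by the LSD1 list of MC_2580. A further 11688 GFI1 peaks had neither H3K4me1 in DMSO nor LSD1, and 586 had LSD1 without H3K4me1. The LSD1 lists had been filtered before deposit: they hold 24.7% (DMSO) and 26.1% (MC_2580) of the numbered calls, with lowest scores of 234.04 and 357, so "no LSD1" means no listed LSD1 peak and not absence of the protein.

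The study profiled chromatin in NB4 cells, an established human acute promyelocytic leukemia line. ChIP-seq, in which DNA bound to a protein or mark is pulled down with an antibody and sequenced, was run for H3K4me1, H3K4me2, H3K4me3 and H3K27ac after 24 h with DMSO (the solvent control), MC_2580 (an LSD1 inhibitor; the labels used here give no dose), retinoic acid (RA) at 0.01 µM (low-dose RA) or at 1 µM (high-dose RA), or MC_2580 with low-dose RA (the combination). LSD1 was profiled with DMSO and with MC_2580, and GFI1 in untreated cells. All groups are the same cell line, with 1 library per antibody and treatment. No difference between treatments therefore has a replicate check, peaks are not replicates, and the 95% intervals given here (exact binomial for shares, normal for differences and log2 ratios) cover counting error only. The H3K4me3 library of the combination carries RA at 1 µM in its title and 0.01 µM in its treatment field, and it was placed by the treatment field.

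GFI1 is a zinc finger transcription factor that represses genes during blood cell development. Its SNAG domain recruits LSD1 (KDM1A), a demethylase that removes methyl groups from mono- and dimethylated lysine 4 of histone H3 and that also serves as a scaffold for repressor complexes. H3K4me1 marks enhancers and the flanks of promoters, H3K4me2 both kinds of element, H3K4me3 mainly active promoters, and H3K27ac active enhancers and promoters.

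The unpaired GFI1 peaks were weaker than the LSD1-paired ones. Against the GFI1 peaks off H3K4me1 they had a slightly higher median score but fewer very strong peaks. The score, the authors' value for each peak on the scale of -10 times log10 of the caller's p-value, ran from the list's floor of 50.01 to 3100 in the unpaired peaks, with a median of 68.5 and quartiles of 55.9 and 101. The median was 94.3 in the LSD1-paired peaks and 64.4 in those off H3K4me1 without LSD1. A score of at least 100 was reached by 25.3% (24.2 to 26.4) of the unpaired peaks, against 46.8% (45.9 to 47.8) of the LSD1-paired and 21.3% (20.6 to 22.1) of the peaks off H3K4me1. A score of at least 200 was reached by 5.70%, 20.2% and 6.49%, and one of at least 500 by 0.804%, 5.12% and 1.49%, in the same order. The median width was 720 bases in the unpaired peaks (range 327 to 13928), 875 in the LSD1-paired and 684 off H3K4me1. Most unpaired peaks, 82.6% (81.6 to 83.6), lay wholly inside an H3K4me1 peak.

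Many of these sites were near LSD1 without meeting it. The distance to the nearest LSD1 peak of either list had a median of 11041 bases and quartiles of 2842 and 40528 bases. Of the 5968 peaks, 754 (12.6%) were under 1 kb from LSD1, 2858 (47.9%) under 10 kb and 643 (10.8%) over 100 kb. Over all GFI1 peaks, the LSD1-paired ones included, these shares were 43.7%, 57.8% and 14.4%. In the GFI1 peaks off H3K4me1 without LSD1 they were 2.03%, 19.7% and 31.1%. The nearest LSD1 peak came from the longer MC_2580 list (18822 peaks, against 12562 in DMSO) for 82.5% of the unpaired peaks. This was near the 78.1% of the GFI1 peaks off H3K4me1 without LSD1. The unpaired site farthest from LSD1, at chr9:11147151-11147816 (hg18, as all positions here), was 3163 kb away. It had a GFI1 score of 58.0 and H3K4me1 scores of 107 in DMSO, 53.9 with MC_2580 and 65.0 with the combination, and none of the other 3 marks in any list.

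Positions at the edge of the rule were few. Under 100 bases separated 79 unpaired peaks from an LSD1 peak, and 61 LSD1-paired peaks overlapped LSD1 by under 100 bases. Just inside, the peaks at chr17:61966964-61967530 (GFI1 score 53.8) and chr9:16911680-16912519 (50.7) had 1 base as their distance to LSD1. Just outside, those at chr6:27963723-27964510 (73.0) and chr7:26155493-26156498 (127) overlapped LSD1 by 1 base. On the H3K4me1 side, 111 unpaired peaks overlapped the mark by under 100 bases, and 92 GFI1 peaks without LSD1 missed it by under 100 bases. The smallest overlaps kept were 2 bases at chr11:117426452-117427183 (65.0) and 3 bases at chr7:105579741-105580418 (57.0), while the peaks at chr16:48214311-48215348 (116) and chr6:11253621-11254427 (65.0) missed an H3K4me1 peak by 2 and 3 bases.

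The H3K4me1 peaks that held unpaired GFI1 sites were smaller than those with LSD1-paired sites. The median width of the H3K4me1 peak was 3791 bases around an unpaired peak and 6275 bases around an LSD1-paired one. In all, 5249 H3K4me1 peaks held an unpaired site, 89.3% of them a single one, and the fullest held 13. LSD1 was present elsewhere in 25.5% of these H3K4me1 peaks, which enclosed 1669 (28.0%) of the unpaired sites. At those 1669 sites H3K27ac was called in DMSO at 56.9% (54.5 to 59.3), against 36.1% (34.7 to 37.6) of the 4299 sites whose H3K4me1 peak had no LSD1. H3K4me3 was also higher at the former, at 29.8% (27.6 to 32.0) and 22.7% (21.4 to 24.0). H3K4me2 did not follow that split, at 29.1% (26.9 to 31.3) and 31.3% (29.9 to 32.7). The H3K4me1 peaks with LSD1 were also wider than those without (median 8848 against 2781.5 bases). Their H3K4me1 was stronger too (median score 1503 against 302). The part of H3K4me1 strength and width in the split was not tested.

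In DMSO the unpaired sites carried far fewer of the other marks than the LSD1-paired sites. H3K4me2 was called at 30.6% (29.5 to 31.8) of them, H3K4me3 at 24.7% (23.6 to 25.8) and H3K27ac at 42.0% (40.7 to 43.2). Over all GFI1 peaks these shares were 36.0%, 30.2% and 41.7%. The LSD1-paired sites stood at 75.6%, 63.1% and 80.0%, so the difference of the unpaired from the LSD1-paired sites was -44.9 percentage points (-46.4 to -43.5) for H3K4me2, -38.5 (-39.9 to -37.0) for H3K4me3 and -38.0 (-39.5 to -36.6) for H3K27ac. H3K4me1 was itself weaker at the unpaired sites, with a median score of 504 in DMSO against 1322. Weighting the LSD1-paired sites to the H3K4me1 scores of the unpaired ones, in quartiles of that score, left differences of -36.4 points (-38.1 to -34.6), -31.9 (-33.6 to -30.2) and -23.3 (-25.03 to -21.6), an adjustment chosen after the data were seen. Within the unpaired sites, from the weakest to the strongest quartile of the H3K4me1 score, H3K27ac was called at 16.6%, 33.9%, 51.7% and 65.7%, a steeper gradient than that of H3K4me2 (17.6%, 30.0%, 37.4% and 37.5%).

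The commonest state was H3K4me1 alone. In DMSO 2575 unpaired sites (43.1%, 41.9 to 44.4) had none of the other 3 marks, against 9.64% of the LSD1-paired sites. A further 1315 (22.0%, against 12.2% of the LSD1-paired sites) had H3K27ac only beside H3K4me1, the pattern usually read as an active enhancer. All 4 marks were present at 770 sites (12.9%), against 54.8% of the LSD1-paired sites. The sites with H3K4me1 alone lay farther from LSD1 (median 15844 bases) than those with added H3K27ac (4936 bases). Over all 5 treatments, 1171 unpaired sites (19.6%) never had a peak of H3K4me2, H3K4me3 or H3K27ac. That share was not computed for the LSD1-paired sites or for all GFI1 peaks.

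The sites were also compared with H3K4me1 chromatin without GFI1, as 33744 windows of 720 bases at the centres of the H3K4me1 peaks that met neither GFI1 nor LSD1. Before weighting, the marks were more frequent at the unpaired sites, by 6.95 points (5.70 to 8.21) for H3K4me2, 7.70 (6.54 to 8.87) for H3K4me3 and 13.2 (11.8 to 14.5) for H3K27ac. Weighted to the same H3K4me1 scores, the windows reached 34.8% for H3K4me2, 26.3% for H3K4me3 and 45.5% for H3K27ac. The unpaired sites then differed from the windows by -4.10 points (-5.57 to -2.64), -1.60 (-2.98 to -0.21) and -3.55 (-4.99 to -2.12). The quartiles differed: in the weakest one the unpaired sites had more H3K4me2 (17.6%, against 14.9% of the windows) and H3K4me3 (12.6% against 10.3%), and in the strongest one less of both (37.5% against 49.5%, and 33.3% against 40.6%). A GFI1 peak can lie anywhere in an H3K4me1 peak whereas the windows are central. Whole H3K4me1 peaks compared at equal width, those with an unpaired site and no LSD1 against those with neither protein, gave the opposite sign for both methylation marks, at 4.70 points (3.10 to 6.30) for H3K4me2 and 2.93 points (1.46 to 4.39) for H3K4me3, and -2.30 points (-3.84 to -0.77) for H3K27ac. The whole peaks were not matched for H3K4me1 score (median 302 with an unpaired site, against 155 with neither protein). That comparison also left out the unpaired sites whose H3K4me1 peak had LSD1, so it differed from the windows in more than position. The direction of the H3K4me2 and H3K4me3 differences from H3K4me1 chromatin without GFI1 thus depended on the comparison, both of which were chosen after the data were seen.

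**Figure D1:**
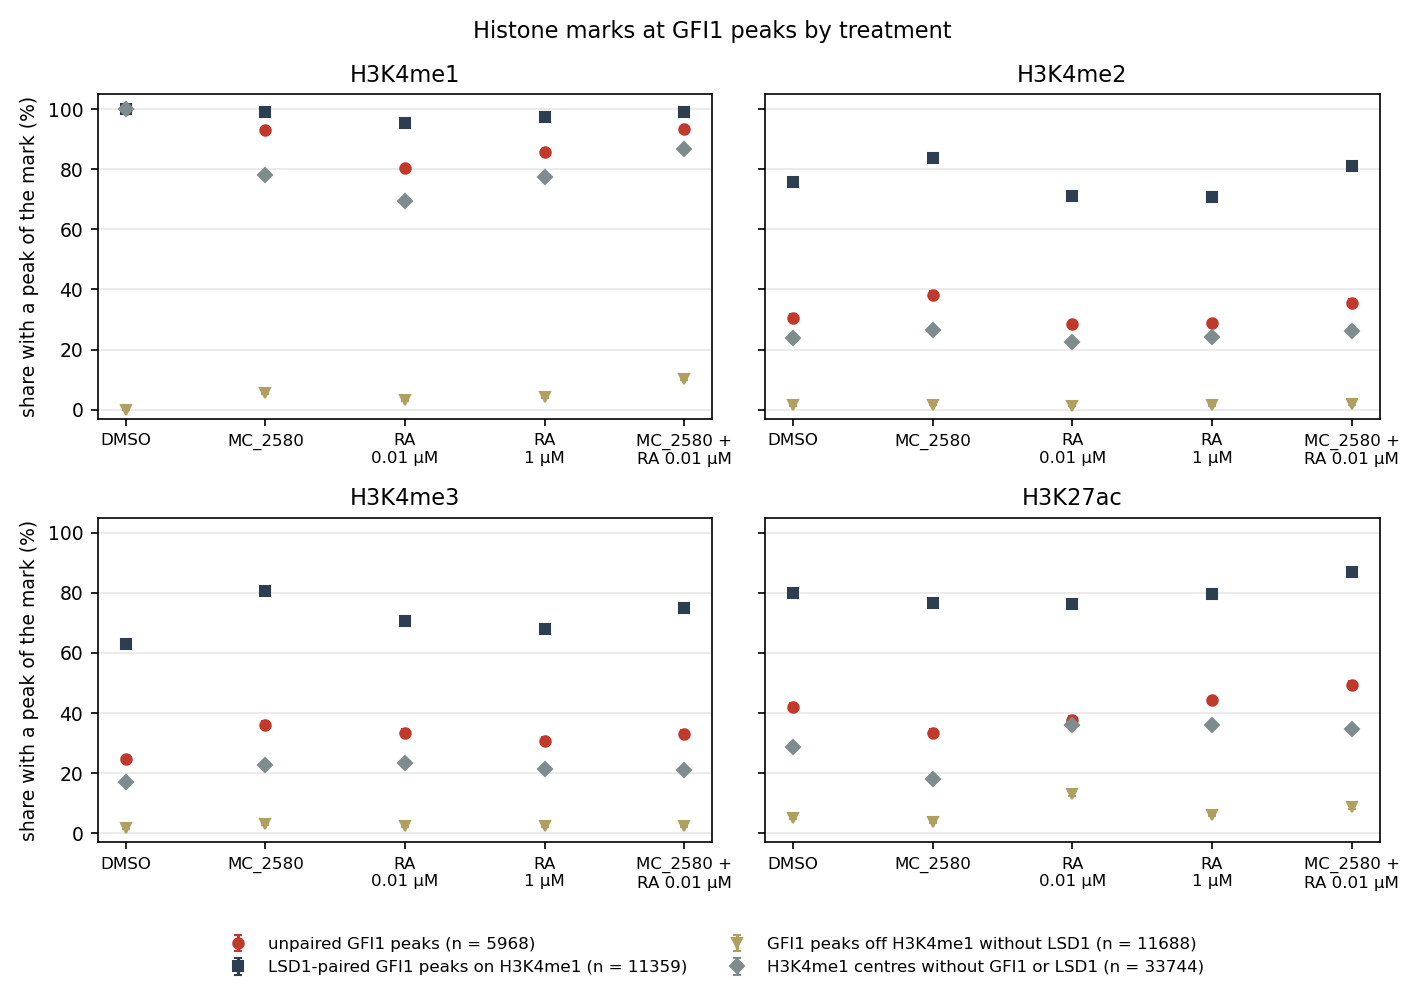
Share of sites with a peak of each mark (vertical axis, percent) in the 5 treatments (horizontal axis), for unpaired GFI1 peaks, LSD1-paired GFI1 peaks on H3K4me1, GFI1 peaks off H3K4me1 without LSD1, and centres of H3K4me1 peaks without GFI1 or LSD1. Bars are 95% binomial intervals of the counts, mostly smaller than the symbols; H3K4me1 in DMSO is 0% or 100% by choice of the sites. The unpaired peaks sit between the LSD1-paired peaks and the H3K4me1 centres in all 4 panels outside H3K4me1 in DMSO.

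H3K27ac varied with distance to LSD1, while H3K4me2 and H3K4me3 did not fall steadily with it. H3K27ac in DMSO was called at 62.2% (58.6 to 65.7) of the unpaired sites under 1 kb from LSD1, 49.7% of those at 1 to 5 kb, 39.4% at 5 to 20 kb, 34.9% at 20 to 100 kb and 26.4% (23.1 to 30.0) at 100 kb or more. H3K4me2 stood at 34.6%, 26.2%, 28.3%, 33.6% and 33.6% in the same bins, and H3K4me3 at 37.8%, 22.3%, 19.4%, 25.8% and 24.7%. The GFI1 score hardly differed between the bins, with medians from 66.8 to 68.8. The gradient of H3K27ac lay in the weaker H3K4me1 sites. In the lowest quartile of the H3K4me1 score, H3K27ac was called at 32.3% (26.8 to 38.1) of sites under 5 kb from LSD1 and at 8.86% (6.89 to 11.2) of sites at 20 kb or more. In the highest quartile the values were 65.9% (62.8 to 68.8) and 67.0% (60.5 to 73.0). H3K4me2 ran the other way in all 4 quartiles. From the lowest quartile up it was 13.8%, 26.6%, 32.5% and 32.9% under 5 kb and 20.4%, 33.4%, 43.1% and 53.0% at 20 kb or more. The intervals overlapped in the lowest quartile (10.0 to 18.4 and 17.5 to 23.5) and were apart in the highest (30.0 to 36.0 and 46.4 to 59.6). This split by H3K4me1 score was made after the data were seen.

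**Figure D2:**
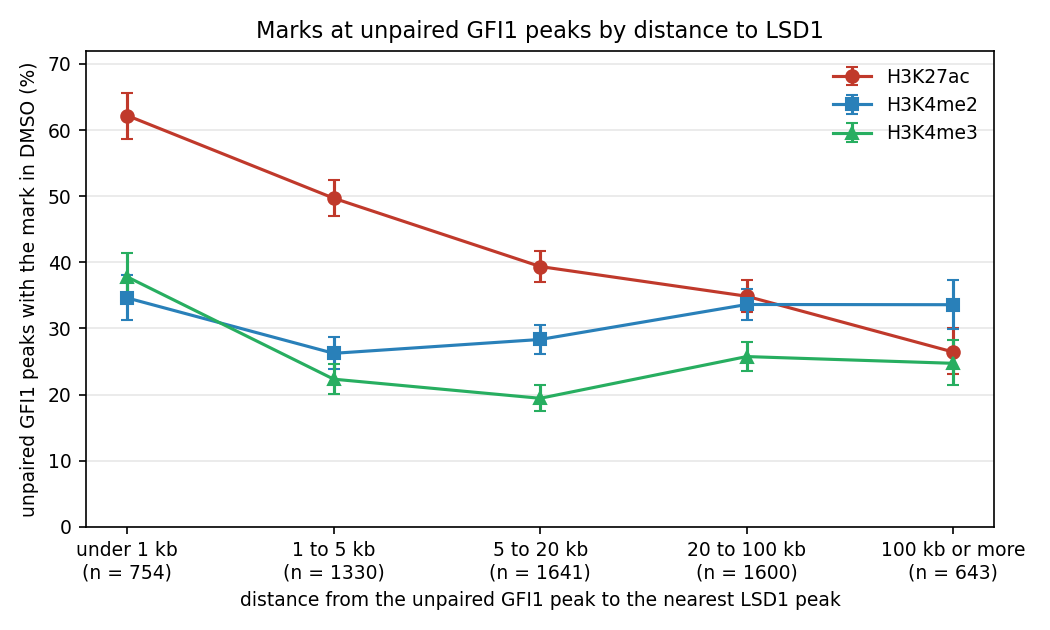
Share of unpaired GFI1 peaks with H3K27ac, H3K4me2 or H3K4me3 in DMSO (vertical axis, percent) by distance to the nearest LSD1 peak (horizontal axis, kb bins with their number of sites). Bars are 95% binomial intervals; H3K27ac goes from 62.2% to 26.4%, while the other marks end near 33.6% and 24.7%.

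Across the range of GFI1 scores the marks in DMSO differed little. From the lowest to the highest quartile of that score H3K27ac stood at 43.1%, 43.9%, 43.3% and 37.5%, and H3K4me2 at 28.4%, 29.3%, 30.0% and 35.0%. The quartile with the strongest GFI1 peaks thus had the lowest H3K27ac share and the highest H3K4me2 share.

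With MC_2580 alone, the unpaired sites had more H3K4me2 and H3K4me3 calls and fewer H3K27ac calls than with DMSO. The H3K4me2 share went from 30.6% to 38.2%. It was gained at 576 sites and lost at 127, a log2 ratio of gained to lost of 2.18 (1.90 to 2.46). The gains were 13.9% (12.9 to 15.0) of the sites without H3K4me2 in DMSO and the losses 6.94% (5.82 to 8.21) of those with it. Over all GFI1 peaks 9.29% gained the mark and 2.98% lost it. The H3K4me2 list of MC_2580 was the longest of its mark (50736 peaks, against 40598 in DMSO), and with lists of equal length the log2 ratio was 0.43. H3K4me3 went from 24.7% to 36.1%, with 696 sites gained and 13 lost (log2 5.74, 4.95 to 6.53). These gains were 15.5% (14.4 to 16.6) of the sites without H3K4me3 in DMSO, close to the 14.0% of all GFI1 peaks, and the losses were 0.883%, against 0.817%. The median score of the new calls was 164 for H3K4me3 and 87.9 for H3K4me2, in lists that do not share a scale. Of the H3K4me3 gains, 38.2% came from a DMSO peak next to the site whose treated call reached into it, compared with 6.94% of the H3K4me2 gains.

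The gains with MC_2580 were less frequent than at LSD1-paired sites. Against H3K4me1 chromatin without GFI1 they were more frequent where H3K4me1 was weak and less frequent where it was strong. At LSD1-paired sites 38.6% gained H3K4me2 and 47.5% gained H3K4me3. Weighted to the H3K4me1 scores of the unpaired sites these became 36.3% and 37.9%, and the unpaired sites differed from them by -22.3 points (-24.7 to -19.97) and -22.5 points (-24.5 to -20.4). Both groups were chosen in part by the LSD1 list of MC_2580, so this contrast is not independent of that treatment. Before weighting, the unpaired sites gained H3K4me2 6.54 points (5.44 to 7.64) and H3K4me3 8.38 points (7.28 to 9.48) more often than the H3K4me1 windows without GFI1 or LSD1. From the weakest to the strongest quartile of the H3K4me1 score, H3K4me2 was gained at 8.30%, 16.6%, 18.6% and 13.6% of the unpaired sites, and at 4.25%, 10.3%, 18.8% and 20.7% of the windows. For H3K4me3 the values were 6.595%, 12.8%, 19.8% and 25.8% at the unpaired sites and 3.92%, 8.16%, 18.4% and 34.6% in the windows. Averaged over the quartiles these opposite differences came to 1.16 points (-0.22 to 2.54) and 0.34 points (-1.05 to 1.73). Among the unpaired sites the gains were more frequent where GFI1 was stronger, and those peaks were also wider. From the lowest to the highest quartile of the GFI1 score H3K4me2 was gained at 10.7%, 12.1%, 14.9% and 18.4% and H3K4me3 at 12.1%, 14.3%, 15.8% and 19.8%, while the median width was 600, 657, 788 and 1053 bases. The part of width in this gradient was not tested. The gains also differed with distance to LSD1. H3K4me2 was gained at 8.52% of sites under 1 kb and 18.0% at 100 kb or more, whereas H3K4me3 was gained at 23.7% under 1 kb, 12.2% at 5 to 20 kb and 18.2% at 100 kb or more.

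H3K27ac was lost with MC_2580 at 800 unpaired sites and gained at 295 (log2 -1.44, -1.63 to -1.25), and its share went from 42.0% to 33.5%. The losses were 31.9% (30.1 to 33.8) of the sites with H3K27ac in DMSO, against 17.3% over all GFI1 peaks, and the gains 8.52% (7.61 to 9.496) of those without, against 6.13%. LSD1-paired sites lost it at 10.3%, and GFI1 peaks off H3K4me1 without LSD1 at 57.9%. The list of this library was also the shortest of its mark, with 24552 H3K27ac peaks against 32789 in DMSO. With lists of equal length the log2 ratio was -0.44. The lost sites had weaker H3K27ac in DMSO (median score 142) than the kept sites (690). The lower retention was still present at equal H3K27ac score: standardised over quartiles of the DMSO score, the unpaired sites lost it 13.7 points more often than the LSD1-paired ones. H3K4me1 windows without GFI1 or LSD1, weighted to the same H3K4me1 score, lost H3K27ac at 34.2%, and the difference of the unpaired sites from them was -2.29 points (-4.55 to -0.02). At 22.8% of the losses the DMSO peak was still called beside the site in the treated list.

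**Figure D3:**
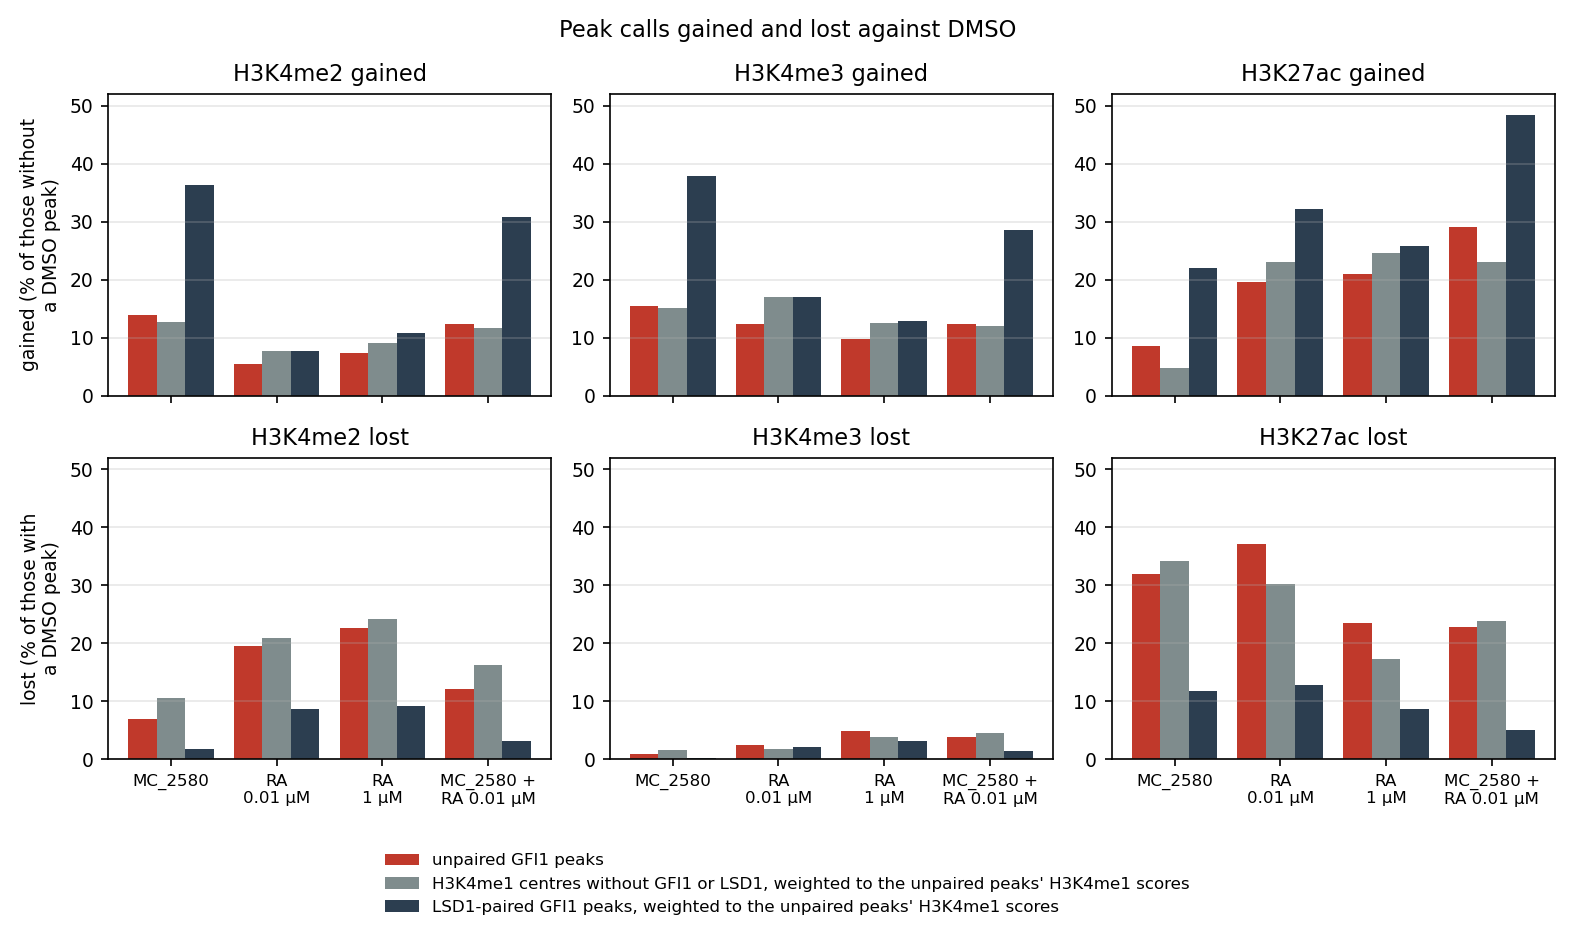
Peak calls gained (top, percent of sites without the mark in DMSO) and lost (bottom, percent of sites with it) for H3K4me2, H3K4me3 and H3K27ac in the 4 treatments, at unpaired GFI1 peaks and, weighted to their H3K4me1 scores, at H3K4me1 centres without GFI1 or LSD1 and at LSD1-paired GFI1 peaks; no error bars are drawn. With MC_2580 the gains of H3K4me2 at unpaired peaks (13.9%) stand near the weighted mean of the H3K4me1 centres (12.8%), an average over quartiles that differ both ways, and below those of LSD1-paired peaks (36.3%).

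With RA alone the unpaired sites had fewer H3K4me2 calls and more H3K4me3 calls than with DMSO. With low-dose RA H3K4me2 was gained at 222 sites and lost at 357 (log2 -0.69, -0.93 to -0.44), and with high-dose RA at 301 and 415 (log2 -0.46, -0.68 to -0.25, and -1.01 with lists of equal length). Under a minimum score of 100 in the GFI1 and histone lists the ratio for high-dose RA was -0.25 (-0.75 to 0.25), an interval that includes 0. The losses were 19.5% and 22.7% of the sites with the mark, against 11.2% and 12.7% of all GFI1 peaks, and the gains 5.36% and 7.27%, against 2.88% and 3.74%. H3K4me3 was gained at 554 sites and lost at 36 with low-dose RA (log2 3.94, 3.46 to 4.43), and gained at 436 and lost at 71 with high-dose RA (log2 2.62, 2.26 to 2.98). These gains were 12.3% and 9.70% of the sites without it, against 8.40% and 6.63% of all GFI1 peaks, and the losses 2.45% and 4.82%, against 2.99% and 4.25%. Compared with H3K4me1 windows of the same score, the unpaired sites gained H3K4me3 less often with RA, with differences of -4.74 points (-6.09 to -3.40) at the low and -2.78 points (-3.99 to -1.56) at the high dose. The H3K4me3 lists of all 4 treatments were longer than that of DMSO (26271 to 29872 peaks against 21688). Cut to equal length, the log2 ratios of H3K4me3 in the 4 treatments lay between 1.52 and 2.73.

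With the low RA dose more unpaired sites lost an H3K27ac call than gained one. With low-dose RA H3K27ac was lost at 930 sites and gained at 680 (log2 -0.45, -0.59 to -0.31), although this H3K27ac list was the longest of the 5 with 55793 peaks. With lists of equal length the log2 ratio was -1.29. The losses were 37.1% (35.2 to 39.1) of the sites with the mark, against 19.5% of all GFI1 peaks, and the gains 19.6% (18.3 to 21.0), against 15.6%. GFI1 peaks off H3K4me1 without LSD1 lost the mark about as often, at 38.5% (34.6 to 42.5). Where H3K27ac in DMSO was strongest, in the highest quartile of its score, 34.2% of 345 unpaired sites lost it, against 4.10% of 2682 LSD1-paired sites. H3K4me1 windows, weighted to the H3K4me1 scores of the unpaired sites, lost it at 30.3%. That was 6.85 points (4.44 to 9.26) less often than the 37.1% of all unpaired sites with the mark. The windows were not matched for H3K27ac score. For 40.8% of the losses the DMSO peak was still called elsewhere along its length. With high-dose RA the balance was the other way, with 724 sites gained and 590 lost (log2 0.30, 0.14 to 0.45). The gains were 20.9%, against 10.9% of all GFI1 peaks, and the losses 23.6%, against 13.4%. Losses at GFI1 peaks off H3K4me1 without LSD1 were 51.1%. With lists of equal length the log2 ratio was -0.06 (-0.23 to 0.11), an interval that includes 0.

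The combination had the highest H3K27ac share of the 5 lists at the unpaired sites. H3K27ac was called there at 49.2% (48.0 to 50.5). The combination was also the highest of the 5 lists over all GFI1 peaks (47.4%) and at LSD1-paired sites (86.8%). At the unpaired sites H3K27ac was gained at 1005 and lost at 570 (log2 0.82, 0.67 to 0.97). The gains were 29.0% (27.5 to 30.6) of the sites without H3K27ac in DMSO, against 17.4% of all GFI1 peaks and 53.2% of LSD1-paired sites, and the losses 22.8%, against 10.6% and 4.78%. GFI1 peaks off H3K4me1 without LSD1 lost H3K27ac at 46.7%. H3K4me1 windows of the same score gained it at 22.98%, 6.04 points (4.25 to 7.82) less often than the unpaired sites. The unpaired sites also exceeded the windows in H3K27ac gains with MC_2580 alone, by 3.74 points (2.65 to 4.84). In H3K27ac gains with RA alone they were below the weighted windows, with differences of -3.36 points (-4.96 to -1.75) at the low and -3.67 points (-5.33 to -2.003) at the high dose. Before weighting these were -2.28 points (-3.70 to -0.86) and 1.02 points (-0.43 to 2.46). H3K4me2 was gained at 509 sites and lost at 222 with the combination (log2 1.20, 0.97 to 1.42), the gains being 12.3% against 8.22% of all GFI1 peaks and the losses 12.1% against 5.34%. H3K4me3 was gained at 556 and lost at 56 (log2 3.31, 2.92 to 3.71), or 12.4% gained against 10.6% and 3.804% lost against 2.66%. With lists of equal length the log2 ratios of the combination were 0.20 for H3K27ac and 0.53 for H3K4me2. All 4 treatments were read against the same DMSO lists.

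H3K4me2 was gained more often where H3K27ac was called in the treated list than where it was called in neither list. With the combination, H3K4me2 was gained at 24.4% (21.4 to 27.7) of the unpaired sites that gained H3K27ac, 17.4% (15.02 to 19.9) of those with H3K27ac in both lists and 6.42% (5.38 to 7.60) of those with it in neither. The same 3 values were 15.0%, 12.7% and 3.71% with high-dose RA, 13.4%, 10.2% and 2.25% with low-dose RA, and 26.5%, 19.2% and 11.4% with MC_2580. Most sites that gained H3K27ac did not gain H3K4me2. Losses differed between treatments. H3K4me2 was lost at 42.3% (33.9 to 51.1) of the sites that lost H3K27ac with high-dose RA, 25.6% of those with H3K27ac in neither list and 18.1% of those that kept it, and at 35.2%, 26.98% and 11.8% with low-dose RA and 29.8%, 15.7% and 8.13% with the combination. With MC_2580 the 3 values were close, at 7.73% (4.64 to 11.9), 8.24% (6.28 to 10.6) and 5.29% (3.88 to 7.01). These splits covered the unpaired sites only and were not weighted by H3K4me1 score, whose part in them was not tested.

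H3K4me1 itself was called at 93.0% of the unpaired sites with MC_2580, 80.5% with low-dose RA, 85.7% with high-dose RA and 93.5% with the combination. The sites had been chosen for H3K4me1 in DMSO, so its calls there could only be kept or lost. The losses were 6.97%, 19.5%, 14.3% and 6.52%, beside 2.98%, 9.85%, 6.75% and 2.88% of all GFI1 peaks on H3K4me1. The unweighted H3K4me1 windows without GFI1 or LSD1 kept it less often, at 78.2%, 69.5%, 77.4% and 86.6%. In the weakest quartile of the H3K4me1 score the losses were 18.8%, 44.4%, 32.5% and 12.2%, and in the strongest 3.15%, 10.3%, 8.04% and 4.83%. At 38.2%, 44.4%, 50.2% and 64.5% of the losses the DMSO peak was still called beside the site. All 5 lists held H3K4me1 at 75.7% of the unpaired sites.

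H3K27ac differed between the lists at more unpaired sites than H3K4me2 or H3K4me3. It was absent from all 5 at 1980 unpaired sites (33.2%) and present in all 5 at 1070 (17.9%), against 6.36% and 61.5% of LSD1-paired sites, which leaves 48.9% with 1 to 4 calls, against 30.1% of all GFI1 peaks. H3K4me2 had 1 to 4 calls at 23.6% and H3K4me3 at 18.6% of the unpaired sites, against 14.3% and 14.1% of all GFI1 peaks. The H3K27ac lists also differed most in length, from 24552 to 55793 peaks. The H3K4me2 lists had 39302 to 50736 peaks and the H3K4me3 lists 21688 to 29872. The part of list length in the difference between marks was not tested. H3K4me2 was absent throughout at 54.6% and H3K4me3 at 58.4%, near the 55.7% and 57.5% of all GFI1 peaks, and they were present throughout at 21.8% and 22.9%, against 29.99% and 28.4%. Among the changing H3K27ac patterns, 289 sites lacked it with MC_2580 only (4.84% of the unpaired and 4.84% of the LSD1-paired sites). It was called with the combination only at 280 (4.69% against 2.32%) and in the 3 RA-containing lists only at 238 (3.99% against 2.43%). Calls in DMSO and MC_2580 only were found at 129 (2.16% against 1.20%). Those in MC_2580 and the combination only were found at 58, a smaller share than at LSD1-paired sites (0.972% against 1.65%). The median GFI1 score was 107 at those 58 sites, 67.3 at the 238, 64.1 at the 289 and 70.9 at the 129.

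**Figure D4:**
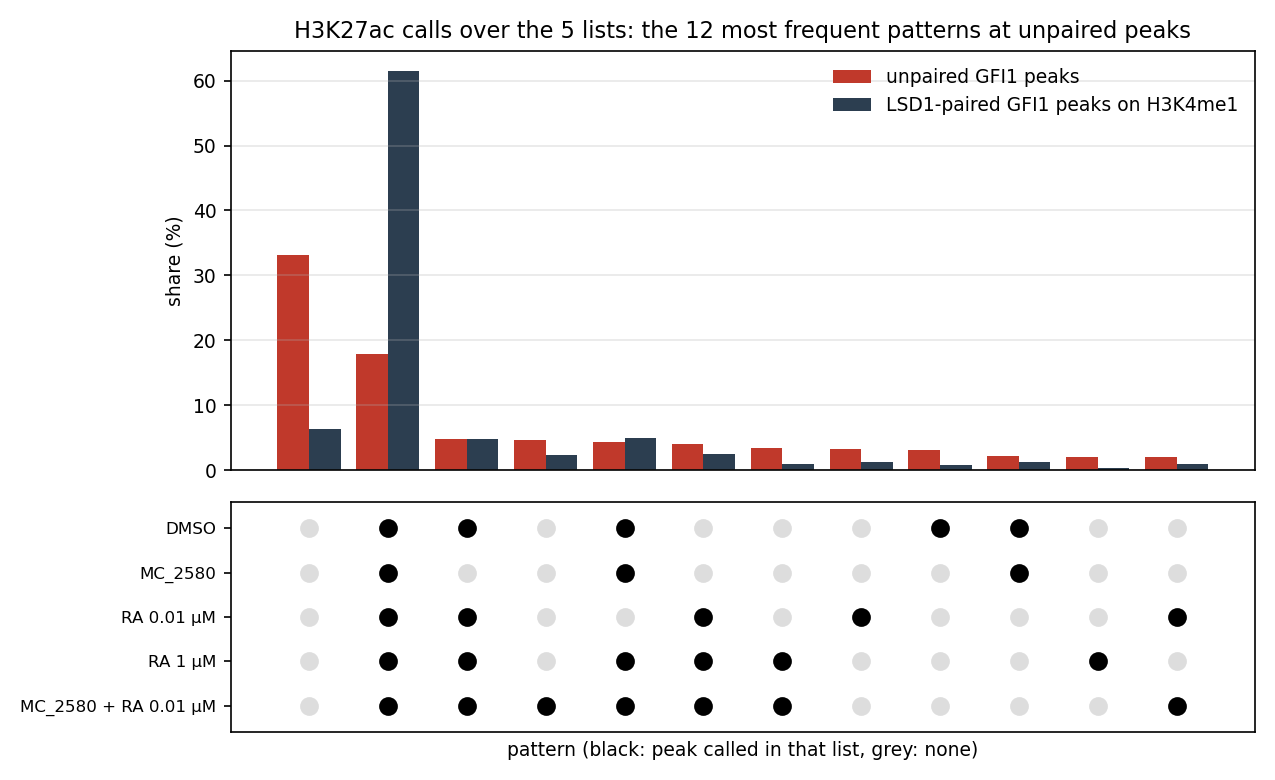
The 12 most frequent patterns of H3K27ac calls at unpaired GFI1 peaks: bars give the share of unpaired and of LSD1-paired GFI1 peaks on H3K4me1 with each pattern (vertical axis, percent), and the dots beneath show in which of the 5 lists H3K27ac was called. No call in any list (33.2%) and calls in all 5 (17.9%) lead at unpaired peaks, while calls in all 5 hold 61.5% of LSD1-paired peaks.

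Single sites show what these patterns look like in the scores, which come from separately called lists and are given as the strength of each call within its own list. The strongest GFI1 site with H3K27ac in the RA-containing lists only was at chr10:129577697-129579037, with a GFI1 score of 982 and LSD1 25.1 kb away. Its H3K27ac scores were 2549 with low-dose RA, 3100 with high-dose RA and 3100 with the combination, with no peak in DMSO or MC_2580. H3K4me1 was called there in every list, at 237, 225, 129, 258 and 888 in the order DMSO, MC_2580, the low and the high dose of RA, and the combination, and H3K4me2 and H3K4me3 in none. The H3K27ac calls thus lay on chromatin with H3K4me1 in all 5 lists. At chr19:52268604-52271571 (GFI1 score 512) the same pattern held with H3K27ac at 3100, 138 and 209 in the 3 RA-containing lists. The site at chr19:52147526-52151777 (683) differed in having H3K4me2 and H3K4me3 in all 5 lists beside H3K27ac of 233, 722 and 714 in the RA-containing ones.

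Sites with H3K27ac only where MC_2580 had been added included chr5:56004622-56005823 (GFI1 score 357), 611 bases from LSD1. H3K27ac reached 1301 with MC_2580 and 973 with the combination. H3K4me2 appeared in the same lists only, at 50.8 and 74.5, just above the floor. H3K4me1 was 2082 in DMSO, 2486 with MC_2580, 764 and 1464 with the RA doses and 3100 with the combination. At chr4:79801852-79802850 (295) H3K27ac was 964 with MC_2580 and 550 with the combination, H3K4me2 appeared with MC_2580 only (142) and H3K4me3 with the combination only (136). The third of these, chr2:26092469-26093745 (298), overlapped its H3K4me1 peak by 32 bases and had H3K27ac of 53.6 and 151, close to the floor.

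The reverse pattern, H3K27ac absent with MC_2580 only, was clearest at chr12:26917375-26920197 (GFI1 score 347), 1195 bases from LSD1. H3K27ac scored 430 in DMSO, 2845 with low-dose RA, and 3100 with high-dose RA and with the combination, on H3K4me1 of 3100 in all 5 lists. At chr19:51990385-51992171 (319) H3K27ac was 179 in DMSO, 3100 with each RA dose and 171 with the combination. At chr7:139083182-139084571 (431) all 4 H3K27ac calls lay between 70.5 and 94.9, near the floor, so its absence with MC_2580 is a small step. For H3K27ac in DMSO and MC_2580 only, the site at chr7:107846318-107847366 (276) went from 83.3 in DMSO to 823 with MC_2580 and gained H3K4me2 (189) and H3K4me3 (117) with MC_2580 only.

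The strongest unpaired sites were wide and clustered. Only 48 of the 5968 reached a score of 500, and 20 of these (41.7%) lay on chromosome 19 between 51 and 54 Mb, a stretch with 2.06% of the unpaired sites. It held 945 GFI1 peaks, 3.19% of the list, but 0.259% of the H3K4me1 peaks in DMSO. Its 123 unpaired sites had a median width of 1435 bases and a median score of 189, against 720 and 68.5 over all. A further 7 of the 48 lay on chromosome 8 within 1.93 Mb, where 219 GFI1 peaks (0.740%) shared 38 H3K4me1 peaks. These places were singled out after their values were seen, the lists do not show whether DNA copy number differs there, and leaving out chromosomes 8 and 19 moved none of the values examined for it by more than their counting error. With a score of 3100, the peak at chr19:10221642-10235569 was the widest, at 13928 bases. It had H3K4me2 and H3K4me3 at 3100 in all 5 lists and H3K27ac with the combination only (140). Its equal in score at chr17:38754958-38756888, 1931 bases wide, had H3K27ac in all 5 lists (608, 101, 1393, 901 and 885) and H3K4me2 in all but MC_2580, at 172 in DMSO and 2028 with high-dose RA. The peak at chr1:121184549-121187106, also at 3100, had H3K4me1 of 79.1 in DMSO and 195 with low-dose RA and no other call in any list.

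At 141 unpaired sites (2.36%, against 0.211% of the LSD1-paired sites) H3K4me1 was called in DMSO and in no treated list. These 141 sites had weak H3K4me1 in DMSO (median score 133) and a median GFI1 score of 65.3. The strongest, chr19:53575326-53580060 (GFI1 score 758), lay in an H3K4me1 peak of 27661 bases with a score of 1467 and had no call of any mark in the 4 treated lists. That peak also enclosed the site at chr19:53585045-53593519 (2286), 8475 bases wide, which kept H3K4me1 in all 5 lists and had H3K4me2 and H3K4me3 at 3100 throughout.

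Unpaired sites were spread unevenly over the genome. Per 100 H3K4me1 peaks of the DMSO list there were 21.9 on chromosome 12, 21.4 on chromosome 7, 15.1 on chromosome 9, 14.0 on chromosome 2 and 13.6 on chromosome 20, but 6.67 on chromosome 1 and 2.75 on chromosome X. Those 5 chromosomes held 41.5% of the unpaired sites, 42.5% of all GFI1 peaks and 25.1% of the H3K4me1 peaks. LSD1-paired GFI1 peaks were dense on chromosomes 7 and 12 too, at 36.1 and 37.9 per 100 H3K4me1 peaks. Without the 5 chromosomes, 3491 unpaired sites remained, and the log2 ratio of gained to lost H3K27ac with the combination was 1.02 instead of 0.82. Neighbouring unpaired sites had a median gap of 93906 bases, and 18.6% of the gaps were under 10 kb. The fullest window of 100 kb, chr8:130700001-130800000, held 24 unpaired sites among 30 GFI1 peaks on 4 H3K4me1 peaks, with scores from 51.8 to 488. Of these 24, H3K27ac was called at 22 in DMSO, 16 with MC_2580, 13 with low-dose RA, 16 with high-dose RA and 13 with the combination. In the same order the window held only 2, 1, 4, 2 and 3 H3K27ac peaks, so these sites shared peaks and are not separate calls.

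**Figure D5:**
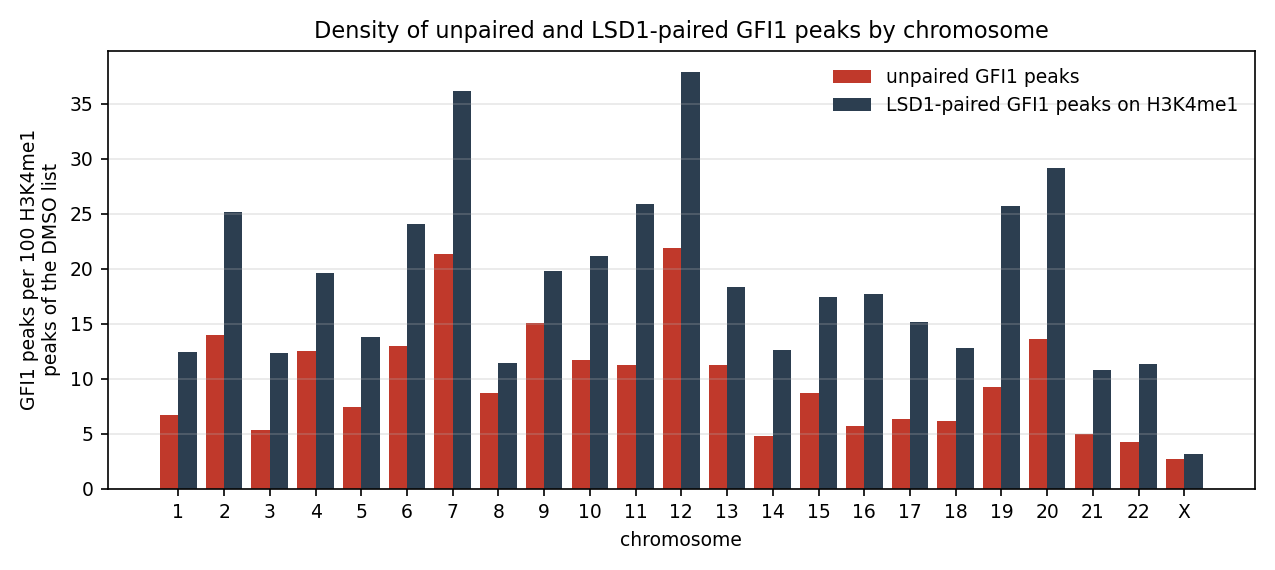
Unpaired and LSD1-paired GFI1 peaks per 100 H3K4me1 peaks of the DMSO list (vertical axis) on each chromosome that held an unpaired peak (horizontal axis; Y held none). Chromosomes 12 and 7 stand highest for both, with 21.9 and 21.4 unpaired peaks, and X is the lowest of those drawn with 2.75.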

How the data were processed

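Each deposited list gives positions on hg18 and a score per peak. Per the submitters' processing notes, bcl2fastq 2, CASAVA 1.8, FastQC 0.10.0 and 0.11.5, Bowtie 1.0.1 and MACS 1.4.1 were used, with no role or order named. The score is the authors' value, piles up at 3100, and was used to describe, rank and filter peaks within a list. Read depth is unknown here. Of 25 samples, 23 had a list; the 2 inputs were not used. A start below 0 in 8 peaks was set to 0.

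Overlaps (at least 1 base), shares and intervals were computed with Python 3.11.15, NumPy 2.4.6, pandas 2.3.3 and SciPy 1.17.1, checked on simulated intervals, and drawn with Matplotlib 3.10.9. A site with a treated and no DMSO call gained the mark, and the opposite lost it. Sites, lists and tests were chosen with earlier results of these data known. Regions named are the 3 highest GFI1 scores in each of 8 mark classes, the 3 sites farthest from LSD1, the fullest windows and the nearest cases at the rule's limits, of which a selection is printed. Alternatives were a minimum score of 100 in the GFI1 and mark lists, the centre base, a margin of 1 kb around LSD1, one LSD1 minimum score, lists of equal length, and weighting by GFI1 score. Leaving out chromosomes and weighting by H3K4me1 or H3K27ac score were added after seeing the data. Sequences and gene names on hg18 were not used here.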

Additional observations from a re-analysis of the deposited data

How the results depend on the processing

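A minimum score of 100 left no site that lost H3K4me3 with MC_2580, so that ratio has no value there. No paired analysis was possible because each group has 1 library and the results come from no test. One minimum score for both LSD1 lists moved no result beyond its counting interval, nor did leaving out chromosomes 8 and 19. The number of unpaired sites was 1340 at a minimum score of 100, which was applied to the GFI1 and all histone lists together, and 3491 without the 5 densest chromosomes.

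Shares in DMSO moved as follows. H3K4me2 was 26.1% at the centre base and 32.2% without the 5 chromosomes. H3K4me3 was 23.3% at the centre base and 22.8% with LSD1 at least 1 kb away. H3K27ac was 34.9% at the minimum score, 40.3% at the centre base, 39.0% with LSD1 at least 1 kb away and 36.8% with lists of equal length. Differences from LSD1-paired sites, in points, were -39.7 (minimum score), -41.3 (centre base), -43.0 (LSD1 1 kb away) and -36.4 (weighted by H3K4me1 score) for H3K4me2. For H3K4me3 they were -29.9 (minimum score), -36.2 (centre base) and -31.9 (H3K4me1 weighting). For H3K27ac they were -36.3 (minimum score), -39.8 (LSD1 1 kb away), -39.7 (equal length), -40.5 (GFI1 weighting) and -23.3 (H3K4me1 weighting).

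Lists of equal length moved the log2 ratios most. In the order MC_2580, high-dose RA and combination, H3K4me2 became 0.43, -1.01 and 0.53. In the order MC_2580, low-dose RA, high-dose RA and combination, H3K4me3 became 2.73, 2.19, 1.52 and 1.94, and H3K27ac -0.44, -1.29, -0.062 (a reversal of sign, with an interval that includes 0) and 0.20; the cause was not tested. At the minimum score H3K4me2 was 2.67 with MC_2580, -0.25 with high-dose RA (-0.75 to 0.25) and 1.81 with the combination, H3K4me3 was 4.61 with low-dose RA and 4.24 with the combination, and H3K27ac was -0.92, 0.54 and 1.26 with MC_2580, high-dose RA and the combination. At the centre base H3K4me2 was 1.74 with MC_2580 and -0.94 with high-dose RA, and H3K27ac -0.65 with low-dose RA. Without the 5 chromosomes H3K27ac with the combination was 1.02. With 1 library per group, depth and antibody yield cannot be told apart from treatment.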
